A study of Mus musculus with 12 samples.

Results

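The 40 genes described here are type I interferon-stimulated genes, followed across 12 LLC1-shLkb1 tumors. LLC1 is the Lewis lung carcinoma line of C57BL/6 mice, and LLC1-shLkb1 carries a short hairpin RNA that lowers the kinase gene Lkb1 (Stk11). The members were chosen by symbol from a list of known interferon-stimulated genes, with earlier results of these data known. Their counts beside all genes therefore describe the set and are no independent test of it. All 40 were found among the 34678 symbols of the tables. All 40 also passed the filter on low values, a mean of at least 0.1 FPKM (fragments scaled to exon length and library depth), which left 15350 genes to be tested.

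The mice were C57BL/6, given in the study's methods as 5 to 8 weeks old, and each arm held 3 tumors. The study used both sexes without selection, and the sex of these mice is not given in the sources used here. The vehicle arm received the isotype control antibody, clone 2A3. The palbociclib arm received this CDK4/6 inhibitor by mouth at 100 mg/kg on the first days of a weekly cycle. The anti-PD-1 arm received antibody RMP1-14 at 200 µg per mouse into the peritoneum, and the combination arm received both agents. Tumors were collected after 2 weeks of treatment. All 4 arms carried the knockdown, so the level of Stk11, 7.90 to 11.5 FPKM over the 12 tumors, checks no label. The line is a single transplanted cell line, and whole tumors with their host cells were sequenced. The study's methods describe tumors under the skin and in the left chest and do not say which were sequenced.

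Type I interferons (the interferon alpha family and interferon beta) bind the IFNAR1/IFNAR2 receptor and, through the kinases JAK1 and TYK2, lead to assembly of the factor ISGF3. ISGF3 contains STAT2 and IRF9 and binds interferon-stimulated response elements in promoters. The induced proteins include sensors that detect viral RNA and DNA, enzymes that degrade or block foreign RNA, membrane proteins that hold back viruses, and factors such as IRF7 and USP18 that amplify or restrain the response. In tumors, type I interferon is best known for its part in priming T cells. Interferon gamma acts through a receptor of its own and induces an overlapping set of genes.

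The response element is visible in the promoters of several members. The shortest form searched was GAAANNGAAA, on both strands and with overlapping matches kept, in windows from 250 bases before to 50 after the annotated start (RefSeq, GRCm38.p6). It was found in 3.99% of 27025 genes with a window, and in 14 of the 29 members with one (48.3%). The 180 bases before the start are shown for 3 members whose tumors were higher with palbociclib, without overlap between arms, in the absence of anti-PD-1 only (Isg15, Ifit3 and Oas3) and for 2 for which this held in both settings (Bst2 and Ddx60), with every match in capitals.
Isg15, chr4:156200819-156200998, minus strand: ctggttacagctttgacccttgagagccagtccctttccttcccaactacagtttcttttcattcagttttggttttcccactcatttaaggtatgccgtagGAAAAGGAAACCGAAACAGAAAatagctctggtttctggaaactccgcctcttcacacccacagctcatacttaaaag
Ifit3, chr19:34583349-34583528, plus strand: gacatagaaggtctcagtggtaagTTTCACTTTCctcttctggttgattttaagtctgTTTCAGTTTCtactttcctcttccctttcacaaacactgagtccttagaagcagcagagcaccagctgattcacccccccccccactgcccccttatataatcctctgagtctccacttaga
Oas3, chr5:120777660-120777839, minus strand: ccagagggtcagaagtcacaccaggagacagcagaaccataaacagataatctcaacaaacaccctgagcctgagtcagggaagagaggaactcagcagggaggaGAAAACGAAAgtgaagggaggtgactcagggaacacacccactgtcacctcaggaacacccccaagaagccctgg
Bst2, chr8:71537473-71537652, minus strand: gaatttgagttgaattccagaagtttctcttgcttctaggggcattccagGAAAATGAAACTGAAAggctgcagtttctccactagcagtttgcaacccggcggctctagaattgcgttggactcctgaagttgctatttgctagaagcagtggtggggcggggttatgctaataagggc
Ddx60, chr8:61927907-61928086, plus strand: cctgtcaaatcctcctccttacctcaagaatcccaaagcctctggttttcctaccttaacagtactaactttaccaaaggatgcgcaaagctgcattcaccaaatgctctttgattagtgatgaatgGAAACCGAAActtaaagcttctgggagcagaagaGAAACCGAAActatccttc
The matches are 3 overlapping ones in Isg15 beginning 78 bases before the start, 2 in Ifit3 on the opposite strand at 156 and 122, 1 in Oas3 at 75, 2 overlapping in Bst2 at 130 and 2 in Ddx60 at 53 and 19. Of members with a window, 10 of the 23 that were higher without anti-PD-1 only and 4 of the 5 that were higher in both settings held a match. The gamma-activated site TTCNNNGAA, an element of interferon gamma targets, was found in 3 of those 23, in 3 of those 5 and in 9.55% of all genes. These matches are descriptions of sequence in one window per start, not of binding.

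The 12 libraries were of similar depth. Estimated depths were 14870000 to 20270000 fragments per tumor, inferred from the smallest steps of the FPKM values. Every member rested on at least an estimated 63 fragments in each tumor. Mean levels of the members ranged from 1.96 FPKM (Ddx60) to 481 FPKM (Ifitm3). Some tumors held RNA of surrounding tissue. Summed FPKM of 5 skin genes was 360 in palbociclib replicate 2 and at most 0.91 elsewhere, that of 5 fat genes reached 920 in combination replicate 1 and 374 in palbociclib replicate 1, and that of 5 muscle genes was 147 in palbociclib replicate 3 and 143 in combination replicate 2. The fat sum separated arms: it was 15.4 to 374 in palbociclib, at most 4.40 in vehicle and 4.75 in anti-PD-1, and 1.29 to 920 in combination tumors. Of the epithelial markers, Krt8 was high in every tumor (62.0 to 276 FPKM), while Epcam stayed at or below 1.81 FPKM. Counts below are therefore also given without the tumors with the highest tissue sums where they change. The skin and fat set leaves out palbociclib replicate 2 and combination replicate 1 and keeps palbociclib replicate 1. The fat difference between the palbociclib and vehicle arms thus remains in it.

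Palbociclib without anti-PD-1 was accompanied by higher levels of nearly the whole set. All 40 members had a higher mean in the palbociclib arm than in the vehicle arm, with a median log2 difference of 1.24 against 0.07 over all genes tested (log2 of FPKM + 0.1, which understates changes of low genes). In 38 of 40 members all 3 palbociclib tumors lay above all 3 vehicle tumors, as in 12.9% of all genes tested. The limma test gave 38 members an unadjusted p below 0.05 in the higher direction, against a background of 9.43%. After Benjamini-Hochberg adjustment over all genes, 11 members rose at an adjusted p below 0.05 (limma), against 0.137% of all genes, and no member fell. The 11 were the sensors Ifih1, Dhx58 and Ddx60, the RNA-binding Ifit2 and Oasl2, the ubiquitin ligase Trim30a, the ADP-ribosyltransferases Parp9 and Parp14, and Rtp4, Xaf1 and Sp100. Their adjusted p-values lay close to the threshold, and the call depended on single tumors: 29 members passed without palbociclib replicate 2, 2 without vehicle replicate 3, and none without palbociclib replicate 1 or 3, vehicle replicate 1 or 2, anti-PD-1 replicate 2 or 3, or combination replicate 1 or 3.

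With anti-PD-1 the picture was different. In the combination against anti-PD-1, a comparison that shares no tumor with the first, 27 members were higher and 13 lower, with a median log2 difference of 0.12 (0.05 over all genes). Only 6 members were higher without overlap (11.4% of all genes) and 1 was lower without overlap (7.49%). At an unadjusted limma p below 0.05, 6 members were higher (7.61% of all genes) and 1 was lower (4.21%), and none passed after adjustment. Only 3 members, Ddx60, Ifit2 and Parp9, were in both sets of 6. These shares of 40 members are near the background. The count at an unadjusted p was 2 without anti-PD-1 replicate 2 or combination replicate 3, and 3 without anti-PD-1 replicate 3 or combination replicate 1.

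The difference between these responses was tested by the interaction, the combination minus anti-PD-1 difference less the palbociclib minus vehicle difference. It was below 0 in all 40 members, with a median of -0.997 on the log2 scale against -0.01 over all genes. At an unadjusted limma p below 0.05, 31 of 40 members had a lower interaction (3.34% of all genes tested). No member and no other gene passed after adjustment (0% of all genes), the smallest adjusted p of a member being 0.532 in limma, and 879 genes in all had an unadjusted p below 0.05. The members share these 12 tumors, so their tests are not independent of one another.

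**Figure D1:**
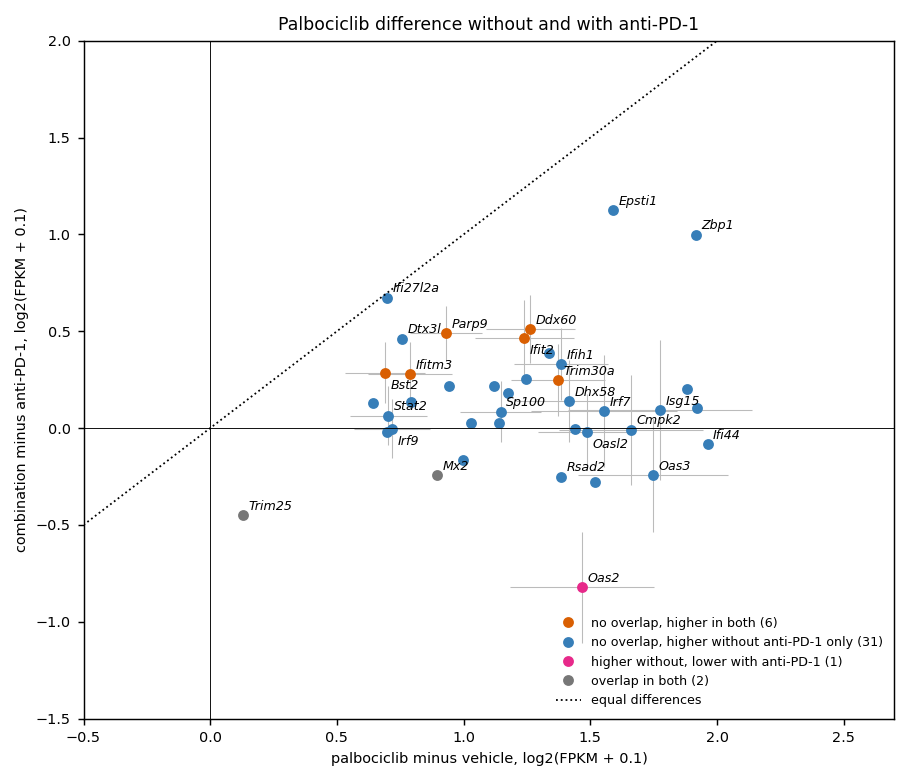
Palbociclib minus vehicle (x axis) against combination minus anti-PD-1 (y axis) for each of the 40 members, both as differences of mean log2(FPKM + 0.1); grey bars on the named genes are standard errors, colours give how the tumors of the arms overlap, and the dotted line marks equal differences. All 40 points lie below the dotted line and most lie near 0 on the y axis, with Oas2 lowest at -0.82 and Epsti1 highest at 1.12.

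By overlap of the tumors the members formed 4 classes. In 31 members the palbociclib tumors lay above vehicle while the combination and anti-PD-1 tumors overlapped (10.7% of all genes). In 6 members, Ddx60, Ifit2, Bst2, Ifitm3, Trim30a and Parp9, palbociclib-treated tumors were higher without overlap in both settings (1.95% of all genes). Of these, Bst2, Ifitm3 and Trim30a missed an unadjusted limma p below 0.05 in the combination against anti-PD-1, while Zbp1, Dtx3l and Epsti1 were below it with overlapping tumors. Oas2 was higher without anti-PD-1 and lower with it (0.235% of all genes). Mx2 and Trim25 overlapped in both comparisons, in a class of all remaining patterns that holds 87.1% of all genes. In 20 members all 3 palbociclib tumors lay above all 9 other tumors (1.39% of all genes). The arm mean was highest in the palbociclib arm for 39 members, Trim25 being the exception, and lowest in the vehicle arm for 35.

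**Figure D2:**
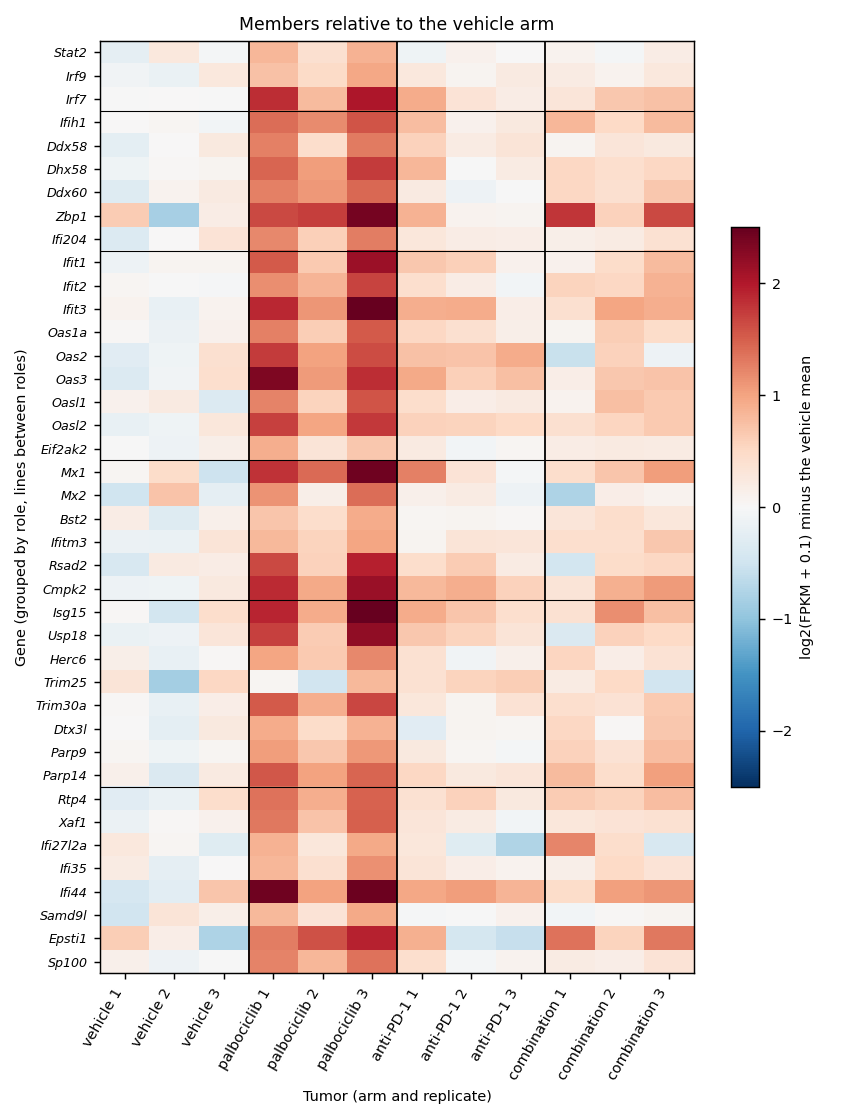
Log2(FPKM + 0.1) of the 40 members (rows, grouped by role) in each of the 12 tumors (columns), relative to the vehicle mean of the gene. Palbociclib replicates 1 and 3 are the darkest columns (medians 1.27 and 1.52), palbociclib replicate 2 is lighter (0.69), and the medians of the combination tumors range from 0.31 to 0.65.

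The members moved together within the palbociclib arm. Palbociclib replicate 3 had the highest level of all 12 tumors for 34 members and palbociclib replicate 2 the lowest level of its arm for 38. Palbociclib replicate 2 is also the tumor with skin transcripts, and palbociclib replicate 3 is 1 of the 2 with the most muscle transcripts. The part of these tissues in the levels was not tested. Without the tumors highest in muscle genes (palbociclib replicate 3 and combination replicate 2), 37 members were higher at an unadjusted p in palbociclib against vehicle and 24 had a lower interaction. Without those highest in skin and fat genes (palbociclib replicate 2 and combination replicate 1) the counts were 39 and 33.

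The transcription factor members were Stat2 and Irf9, which are parts of ISGF3, and Irf7, which drives transcription of interferon alpha genes. Stat2 measured 21.3, 30.3 and 24.4 FPKM in the vehicle tumors, 44.8, 33.1 and 46.1 with palbociclib, 23.2, 27.1 and 25.4 with anti-PD-1 and 26.6, 24.3 and 28.3 with the combination. The palbociclib tumors stood above all others, and the other arms overlapped one another. The interaction for Stat2 was -0.64 ± 0.22 (SE, limma, unadjusted p = 0.013). Irf9 measured 3.72, 3.51 and 4.79 FPKM in vehicle, 6.62, 5.55 and 7.81 in palbociclib, 4.78, 4.16 and 4.69 in anti-PD-1 and 4.56, 4.24 and 4.80 in combination tumors. Its combination and anti-PD-1 tumors were at the same level, with a log2 difference of -0.00 (95% interval -0.33 to 0.33). Irf9 overlaps the same-strand gene Rnf31 (mean 6.20 FPKM), and how reads there were assigned is not given in the sources used here.

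Irf7 showed the widest gap of the factors. It measured 7.29, 7.39 and 7.26 FPKM in vehicle tumors, 26.6, 12.8 and 29.9 with palbociclib, 14.0, 9.25 and 8.34 with anti-PD-1 and 9.02, 11.7 and 12.3 with the combination. Palbociclib replicate 2 lay below anti-PD-1 replicate 1, so the palbociclib arm was clear of vehicle and of the combination but not of anti-PD-1. The interaction was -1.47 ± 0.41 (SE, limma, unadjusted p = 0.0041). Irf7 overlaps Phrf1 (mean 7.87 FPKM) on the opposite strand, and whether strand was used in counting is not given in the sources used here.

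All 6 sensors were higher with palbociclib without overlap (12.9% of all genes), by a median of 1.32 on the log2 scale. The median was 0.24 for the combination against anti-PD-1. Ifih1 encodes MDA5, a cytosolic receptor for long double-stranded RNA. It measured 1.34, 1.38 and 1.26 FPKM in vehicle tumors, 3.67, 3.14 and 4.13 with palbociclib, 2.33, 1.44 and 1.58 with anti-PD-1 and 2.42, 1.90 and 2.38 with the combination. The palbociclib tumors exceeded all 9 others, and the combination tumors lay between them and vehicle. Ifih1 rose 2.61-fold against vehicle (limma, adjusted p = 0.0382), and its interaction was -1.05 ± 0.26 (SE, limma, unadjusted p = 0.0020).

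Dhx58, which encodes the related LGP2, a regulator of MDA5 and RIG-I, followed the same order. It measured 3.75, 4.11 and 4.24 FPKM in vehicle, 11.2, 8.45 and 13.7 in palbociclib, 7.25, 4.02 and 4.66 in anti-PD-1 and 5.79, 5.41 and 5.84 in combination tumors. Anti-PD-1 replicate 1 was the highest tumor outside the palbociclib arm. Dhx58 rose 2.67-fold against vehicle (limma, adjusted p = 0.0386), with an interaction of -1.28 ± 0.30 (SE, limma, unadjusted p = 0.0013). Ddx58, encoding RIG-I, had a palbociclib difference of 0.996 and a combination difference of -0.16, and Ifi204, a DNA sensor of the AIM2-like family, 1.03 and 0.03. Ifi204 shares 13.2% of its 75-base windows with other annotated genes, so part of its reads could belong to relatives.

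Ddx60, an RNA helicase, kept a response in both settings. It measured 1.02, 1.39 and 1.53 FPKM in vehicle tumors, 3.27, 2.88 and 3.68 with palbociclib, 1.53, 1.18 and 1.28 with anti-PD-1 and 1.92, 1.75 and 2.13 with the combination. The 3 combination tumors lay above all anti-PD-1 and vehicle tumors and below all palbociclib tumors. It rose 2.40-fold against vehicle (limma, adjusted p = 0.0382). With anti-PD-1 it was 1.43-fold higher, which missed the adjusted threshold (limma, unadjusted p = 0.014, adjusted p = 0.337), and the interaction was -0.75 ± 0.25 (SE, limma, unadjusted p = 0.012). Zbp1, a sensor of Z-form nucleic acids that can trigger cell death, had differences of 1.92 and 0.998 with wide errors (SE 0.42 each), and its interaction of -0.92 ± 0.59 missed p below 0.05 (limma, unadjusted p = 0.15).

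The effectors that act on foreign RNA included the member with the lowest interaction, Oas2. All 9 of this group (IFIT, OAS and PKR genes) were higher with palbociclib without overlap (12.9% of all genes). All 9 had a lower interaction at an unadjusted limma p below 0.05 (3.34% of all genes), and the median interaction was -1.44. The OAS enzymes make 2'-5'-linked oligoadenylates that activate RNase L. Oas2 (chromosome 5, 120730333 to 120749853, GRCm38) measured 4.83, 5.501 and 7.81 FPKM in vehicle, 20.2, 12.05 and 18.6 in palbociclib, 9.89, 9.74 and 11.4 in anti-PD-1 and 3.99, 8.91 and 5.43 in combination tumors. All palbociclib tumors were above all vehicle tumors, and all combination tumors were below all anti-PD-1 tumors. The differences were 1.47 ± 0.28 and -0.82 ± 0.28 (log2, SE), and the interaction of -2.29 ± 0.40 had the smallest p of the members (limma, unadjusted p = 0.00014, adjusted p = 0.532).

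Oas3 lies 3244 bases from Oas2 on the same strand. It measured 3.82, 4.60 and 6.56 FPKM in vehicle, 24.8, 10.3 and 17.8 in palbociclib, 9.43, 7.44 and 8.23 in anti-PD-1 and 5.45, 7.83 and 8.10 in combination tumors. Unlike Oas2, its combination and anti-PD-1 tumors overlapped, with a log2 difference of -0.24 (95% interval -0.89 to 0.41). The interaction was -1.99 ± 0.42 (SE, limma, unadjusted p = 0.00058). Oas3 has a response element 75 bases before its start (above), while Oas2 had no window to search.

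Oasl2 encodes an OAS-like protein. It measured 6.54, 6.88 and 9.02 FPKM in vehicle, 24.4, 14.8 and 25.5 in palbociclib, 11.1, 10.9 and 10.5 in anti-PD-1 and 9.75, 10.8 and 11.6 in combination tumors. Anti-PD-1 and combination tumors were interleaved within a narrow range above vehicle. Oasl2 rose 2.80-fold with palbociclib (limma, adjusted p = 0.0382), while the combination minus anti-PD-1 difference was -0.02 (95% interval -0.44 to 0.40), and the interaction was -1.504 ± 0.27 (SE, limma, unadjusted p = 0.00017). Its neighbour Oasl1, a restraint on Irf7 translation, had differences of 1.12 and 0.21. Oas1a had 1.14 and 0.02, but 47.6% of its 75-base windows are shared with Oas1g, so its level is uncertain.

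Among the IFIT proteins, which bind foreign RNA, Ifit2 differed from its neighbours on chromosome 19. Ifit2 measured 11.5, 11.1 and 10.9 FPKM in vehicle, 25.2, 20.3 and 36.4 in palbociclib, 14.98, 12.7 and 10.7 in anti-PD-1 and 16.4, 16.0 and 20.6 in combination tumors. Its combination tumors stayed above all anti-PD-1 tumors. Ifit2 rose 2.36-fold with palbociclib (limma, adjusted p = 0.0386) and was 1.38-fold higher in the combination than with anti-PD-1 (limma, unadjusted p = 0.036, adjusted p = 0.394). Ifit1 and Ifit3 had palbociclib differences of 1.44 and 1.92 and combination differences of -0.00 and 0.10, with overlapping tumors in the latter. Whether Ifit2 differs from Ifit1 and Ifit3 was not tested. Ifit3 shares 41.1% of its 75-base windows with Ifit3b, a listed gene outside the members that had differences of 2.02 and -0.04. Eif2ak2, the kinase PKR, had the smallest interaction of this group at -0.51.

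Of the 6 membrane, nucleotide and Mx effectors, 5 were higher with palbociclib without overlap (12.9% of all genes). In the combination against anti-PD-1, 2 were higher without overlap (11.4% of all genes). Those 2 were the most abundant ones, which act at membranes. Bst2 (tetherin, which holds budding virions at the cell surface) measured 363, 258 and 352 FPKM in vehicle, 521, 433 and 613 in palbociclib, 332, 336 and 327 in anti-PD-1 and 393, 432 and 388.6 in combination tumors. Palbociclib-treated tumors were above their counterparts in both settings. The log2 differences were 0.69 ± 0.16 and 0.29 ± 0.16 (SE), the second missing p below 0.05 (limma, unadjusted p = 0.095), and the interaction was -0.40 ± 0.22 (SE, limma, unadjusted p = 0.095).

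Ifitm3, which blocks fusion of viruses with endosomes, measured 325, 319 and 447 FPKM in vehicle, 631, 530 and 716 in palbociclib, 375, 447 and 443 in anti-PD-1 and 478, 482 and 576 in combination tumors. The gap between the highest anti-PD-1 and the lowest combination tumor was small. Its differences were 0.79 ± 0.17 and 0.28 ± 0.17 (SE), with an interaction of -0.51 ± 0.23 (SE, limma, unadjusted p = 0.052). Rsad2 (viperin) and Cmpk2, neighbours on chromosome 12 that act in nucleotide metabolism, overlapped between combination and anti-PD-1. Cmpk2 measured 9.04, 9.17 and 11.8 FPKM in vehicle, 36.7, 19.2 and 45.0 in palbociclib, 17.5, 18.9 and 14.9 in anti-PD-1 and 12.5, 18.5 and 20.9 in combination tumors.

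For Cmpk2 every tumor of the 3 treated arms exceeded every vehicle tumor. Its combination minus anti-PD-1 difference was -0.01 (95% interval -0.64 to 0.62), with an interaction of -1.67 ± 0.40 (SE, limma, unadjusted p = 0.0016), and Rsad2 had an interaction of -1.64. Mx1, a GTPase that is defective in C57BL/6 mice as a protein, still had palbociclib and combination differences of 1.88 and 0.20. Mx2 was lower in level, and vehicle replicate 2 at 3.25 FPKM exceeded palbociclib replicate 2 at 2.16.

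The ubiquitin-like protein ISG15, the enzymes around it and the ADP-ribosylation genes were 8 members. Isg15 measured 49.5, 35.2 and 65.8 FPKM in vehicle, 182, 92.5 and 274 in palbociclib, 91.9, 78.7 and 65.0 in anti-PD-1 and 63.2, 109 and 82.3 in combination tumors. The palbociclib values spread widely, and combination replicate 2 exceeded palbociclib replicate 2. The interaction was -1.68 ± 0.51 (SE, limma, unadjusted p = 0.0072). Usp18, which removes ISG15 from proteins and restrains IFNAR signalling, had differences of 1.52 and -0.28, and Herc6, the ligase that attaches ISG15 in mice, 0.94 and 0.22. Trim25, a ligase that acts on RIG-I, had the smallest palbociclib difference of the members, 0.13 ± 0.39 (SE), with 12.8 to 33.2 FPKM in vehicle and 16.6 to 40.6 in palbociclib tumors.

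Trim30a and Parp9 were higher with palbociclib without overlap in both settings. Trim30a measured 5.28, 4.54 and 5.85 FPKM in vehicle, 15.3, 9.86 and 16.7 in palbociclib, 6.32, 5.43 and 6.68 in anti-PD-1 and 6.97, 6.73 and 8.25 in combination tumors. The margin between combination and anti-PD-1 tumors was narrow, and the interaction was -1.12 ± 0.26 (SE, limma, unadjusted p = 0.0013). It rose 2.59-fold with palbociclib (limma, adjusted p = 0.0382). Parp9 measured 10.4, 9.25 and 10.3 FPKM in vehicle, 20.7, 15.8 and 21.1 in palbociclib, 11.8, 10.2 and 9.58 in anti-PD-1 and 14.8, 12.7 and 17.1 in combination tumors. The order palbociclib, combination, then the other arms was clear of overlap except between palbociclib and combination. Parp9 rose 1.91-fold (limma, adjusted p = 0.0386) and was 1.40-fold higher in the combination than with anti-PD-1 (limma, unadjusted p = 0.0055, adjusted p = 0.327).

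Parp9 and its partner ligase Dtx3l overlap by 682 bases on opposite strands of chromosome 16, and Parp14 lies beside them. Dtx3l had palbociclib and combination differences of 0.76 and 0.46, and Parp14 of 1.34 and 0.39. The interactions of Parp9 and Dtx3l, -0.44 and -0.30, missed p below 0.05, and that of Parp14 was -0.95 (limma, unadjusted p = 0.0064).

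The remaining 8 members have mixed roles. Sp100, a nuclear body protein, measured 4.92, 4.12 and 4.49 FPKM in vehicle, 10.8, 8.07 and 11.7 in palbociclib, 6.06, 4.37 and 4.76 in anti-PD-1 and 5.23, 5.07 and 5.69 in combination tumors. The palbociclib tumors stood clear of all others. It rose 2.21-fold with palbociclib (limma, adjusted p = 0.0382), and its interaction was -1.06 ± 0.22 (SE, limma, unadjusted p = 0.00062). Ifi44 had the largest palbociclib difference of any member at 1.96 and an interaction of -2.05. Epsti1 and Ifi27l2a had the smallest losses of this group: Epsti1 differed by 1.59 and 1.12, and Ifi27l2a by 0.70 and 0.67, with an interaction of -0.02 (95% interval -1.19 to 1.15). Ifi27l2a varied from 37.0 to 113 FPKM among combination tumors, so its interval is wide. Rtp4, Xaf1, Ifi35 and Samd9l had combination differences of 0.25, 0.18, 0.13 and -0.02 after palbociclib differences of 1.24, 1.18, 0.79 and 0.70. Rtp4 and Herc6 share 10.5% and 11.3% of their 75-base windows with overlapping annotated transcripts.

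**Figure D3:**
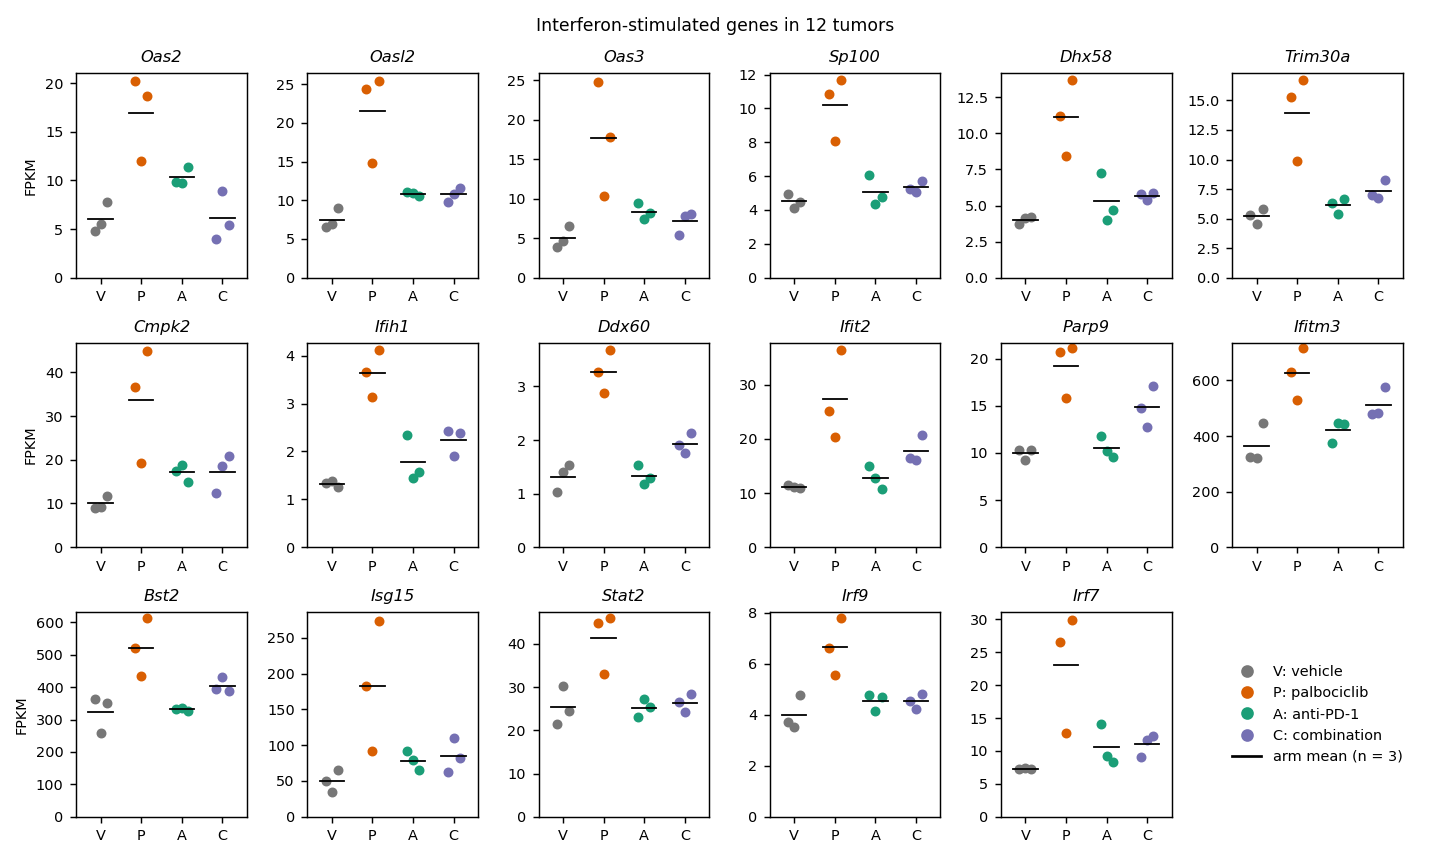
FPKM of the 17 named members in each tumor (points, linear axis from 0, a separate scale per gene) by arm (V vehicle, P palbociclib, A anti-PD-1, C combination), with the arm mean as a line (n = 3). The palbociclib points are highest in most panels, and combination points sit above all anti-PD-1 points in the panels of Ddx60, Ifit2, Parp9, Ifitm3, Bst2 and Trim30a.

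Anti-PD-1 by itself was accompanied by a small shift of the members. Against vehicle, whose tumors also serve the palbociclib comparison, 37 members were higher, with a median log2 difference of 0.31 (-0.03 over all genes). In 12 members the anti-PD-1 tumors lay above vehicle without overlap (4.25% of all genes), and 5 had an unadjusted limma p below 0.05 (3.28% of all genes), Oas2, Oas3, Oasl2, Cmpk2 and Ifi44. None passed after adjustment, and the smallest adjusted p was 0.580 in limma. The count at an unadjusted p was 0 without vehicle replicate 1 or 2, 3 without anti-PD-1 replicate 1 or 3, 8 without vehicle replicate 3 and 11 without palbociclib replicate 2.

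The combination arm lay between vehicle and palbociclib. Against vehicle, the combination was higher in 38 members, with a median of 0.47, and 19 members did not overlap (10.8% of all genes). At an unadjusted limma p below 0.05, 14 members were higher (8.64% of all genes) and none passed after adjustment. That count was 23 without palbociclib replicate 2 and 9 without combination replicate 3. Against palbociclib, whose tumors are shared with the first comparison, the combination was lower in all 40 members, with a median of -0.74. In 24 members the combination tumors lay below all palbociclib tumors (9.15% of all genes), and 34 had an unadjusted limma p below 0.05 (3.47% of all genes), again with none after adjustment. That count was 18 without the tumors highest in muscle genes. Averaged over both settings, the palbociclib effect was higher in 37 members at an unadjusted limma p (14.1% of all genes) and in 6 after adjustment (0.248%), which were Ddx60, Ifih1, Ifit2, Parp14, Parp9 and Trim30a. The 6 became 19 without anti-PD-1 replicate 1, 15 without vehicle replicate 1 or combination replicate 2, 10 without palbociclib replicate 2, 2 without vehicle replicate 3 and 0 without any one of the other 7 tumors.

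The ligands of the pathway were barely detectable. Of 20 type I and III interferon genes in the tables, 10 were listed at 0 in all tumors and none reached the filter. Ifnb1, encoding interferon beta, was at 0 in 7 tumors and at most 0.241 FPKM (palbociclib replicate 3), and Ifna4 reached 0.330 FPKM. These levels are too low to compare arms. The receptor chains Ifnar1 and Ifnar2 had palbociclib differences of -0.18 and 0.01. Among 14 receptor and signalling genes tested, 3 were higher with palbociclib at an unadjusted limma p (9.43% of all genes). In the combination against anti-PD-1, 2 were higher (7.61% of all genes). The medians were 0.16 and 0.07.

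Many genes of interferon gamma and its targets were higher with palbociclib in both settings. Of 17 tested, 11 were higher in palbociclib against vehicle (9.43% of all genes) and 11 in the combination against anti-PD-1 (7.61%) at an unadjusted limma p. The medians were 1.65 and 1.08, and the median interaction was -0.03. In both comparisons together 10 of the 17 were higher at an unadjusted p and 7 were not, among them Ifng and Nos2. The median interaction was the value of Jak2, another of these 7, whose differences were 0.04 and 0.01. Interactions of the 10 ran from -0.78 ± 0.40 (Gbp3) to 0.78 ± 1.36 (Cxcl9, SE). After adjustment 1 of the 17 passed in palbociclib against vehicle and 0 in the combination against anti-PD-1 (limma). The GTPase Gbp2 had differences of 1.84 and 1.73, and the chemokine Cxcl9 2.44 and 3.22. Combination replicate 2 stood apart, with 41.2 FPKM of Gbp2 against 135 and 149 in the other combination tumors and 17.9 to 43.8 in vehicle. Cxcl10, another chemokine of the list, had 1.71 and 0.37. It was the 1 gene of the list with an interaction at an unadjusted p below 0.05 (-1.34, limma, unadjusted p = 0.011). Of these 17 genes, 13 had a promoter window and 8 of them a response element, so the element searched is not particular to the members. The difference between this list and the members was not tested.

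Further interferon-stimulated genes outside the members were close to them in form. Of 44 tested, 39 were higher in palbociclib against vehicle at an unadjusted limma p (9.43% of all genes). In the combination against anti-PD-1, 8 were higher (7.61%) and 1 lower (4.21%). A lower interaction at an unadjusted limma p was seen in 29 (3.34% of all genes), with a median interaction of -0.86. Lgals3bp, a secreted glycoprotein, had the smallest p: 19.3, 22.7 and 25.7 FPKM in vehicle, 92.2, 64.5 and 85.2 in palbociclib, 48.4, 43.5 and 46.6 in anti-PD-1 and 37.4, 44.6 and 50.4 in combination tumors. The palbociclib tumors stood clear of all others, and anti-PD-1 and combination tumors overlapped well above vehicle. Its interaction of -1.90 ± 0.22 (SE) just missed the adjusted threshold (limma, adjusted p = 0.0504). Of 11 nucleic acid sensing genes, 5 were higher with palbociclib at an unadjusted limma p and 1 in the combination, and Tlr3, the endosomal receptor for double-stranded RNA, rose (limma, adjusted p = 0.0386). Of 13 genes that restrain the pathway, 5 and 2 were higher. In palbociclib against vehicle the share of all genes was 9.43%. In the combination comparison, 2 of 14, 1 of 11 and 2 of 13 are counts near the 7.61% of all genes. The RNA editor Adar had an interaction of -0.46, while Socs1, a feedback inhibitor of JAK kinases, had -0.22 with differences of 1.07 and 0.86.

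**Figure D4:**
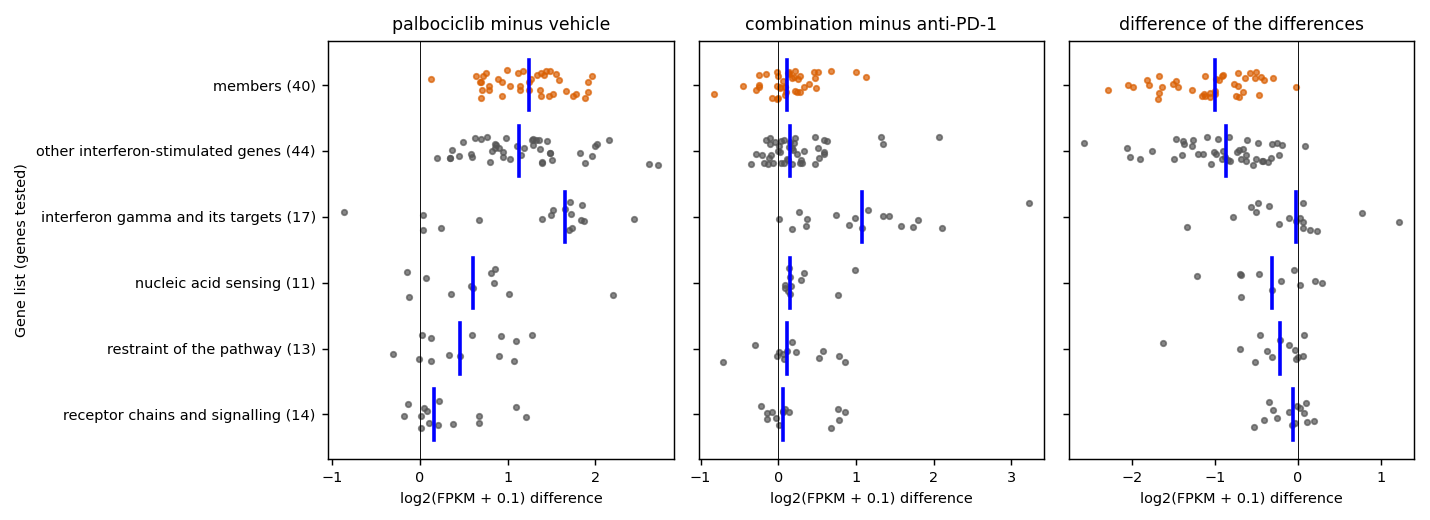
Log2(FPKM + 0.1) differences of each tested gene (points) in the 40 members and 5 further lists of the interferon pathway, for palbociclib minus vehicle, combination minus anti-PD-1 and the difference of these differences; blue bars are medians. Members and other interferon-stimulated genes shift left in the third panel (medians -0.997 and -0.86). Interferon gamma and its targets, a list that also holds genes without a palbociclib difference, have a median of -0.03 and range from -1.34 (Cxcl10) to 1.22 (Nos2).

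Cell type markers moved with the arms in part. In these whole tumors, fewer cells of a type and less RNA per cell cannot be told apart. Summed FPKM of the 3 T cell markers (Cd3d, Cd3e and Cd5) was 0.583 to 2.42 in vehicle, 2.65 to 5.15 in palbociclib, 0.593 to 1.57 in anti-PD-1 and 1.70 to 5.13 in combination tumors. Sums for 7 dendritic cell markers were 10.4 to 32.5, 32.7 to 54.2, 10.4 to 21.1 and 18.6 to 45.2 in the same order, and sums for 8 NK cell markers 52.4 to 80.4, 89.1 to 108, 73.6 to 83.6 and 57.4 to 102. Combination replicate 2 was the lowest of its arm in all 3 lists. Neutrophil markers went the other way, with sums over 4 genes of 29.2 to 504 in vehicle, 13.7 to 29.9 in palbociclib, 43.2 to 254 in anti-PD-1 and 12.8 to 79.6 in combination tumors. Macrophage sums overlapped, at 123 to 194, 183 to 262, 116 to 225 and 122 to 227 in the same order. Sums over 4 epithelial markers were 84.3 to 153, 108 to 148, 122 to 281 and 72.8 to 97.9 in the same order. All combination tumors thus lay below all palbociclib and all anti-PD-1 tumors in this sum. Sums of B cell, endothelial, fibroblast and epithelial markers overlapped between vehicle and palbociclib. Endothelial sums were lower in combination (16.1 to 23.1) than in anti-PD-1 tumors (24.6 to 25.2). For plasmacytoid dendritic cells, the main producers of interferon alpha, the sum over 4 markers was 4.34 in palbociclib replicate 3, the tumor highest for 34 members, and at most 1.80 elsewhere. In palbociclib replicate 3 itself, the defining gene Siglech was at 0.0449 FPKM and Ccr9 at 0, so the sum there rested on Klk1 and Cox6a2. Siglech was at most 0.133 FPKM (palbociclib replicate 2). The sum of 1.80 was that of combination replicate 2. These are also the tumors with the most muscle transcripts (147 in palbociclib replicate 3 and 143 in combination replicate 2), and the part of muscle in the sums was not tested. Ptprc (CD45) was 1.48 to 2.11 FPKM in vehicle, 2.25 to 3.36 in palbociclib, 1.19 to 1.44 in anti-PD-1 and 0.841 to 3.21 in combination tumors. The part of these cells in the members' levels was not tested.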

How the data were processed

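RNA from 12 tumors was sequenced, and the authors deposited 1 table of FPKM values per tumor. The processing notes in the labels name HISAT2 and the build GRCm38/mm10. The counting tool, annotation and strand setting are not given in the sources used here. FPKM are scaled to depth and gene length, so genes with shared or overlapping sequence can carry reads of one another. Each table held 34745 entries. Where 67 entries repeated a symbol, the entry with the highest mean was kept. Fragment numbers were estimated from the smallest steps of the FPKM.

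Tumors were grouped by treatment label (n = 3 per arm, different mice per the study, so p-values measure the spread between these tumors). The main test was limma 3.58.1 in R 4.3.3 on log2(FPKM + 0.1) for the 15350 genes whose mean FPKM was 0.1 or more, with 1 mean per arm, a mean-variance trend, no covariates, two-sided p-values, Benjamini-Hochberg adjustment over all genes tested and a threshold of 0.05. Intervals are 95% intervals of limma and folds are on the log2(FPKM + 0.1) scale. Positions are from GENCODE M21 (GRCm38), in which transcripts were also searched for 75-base windows shared between genes. Promoter sequences are from RefSeq (GRCm38.p6).

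Values in every tumor are given for the 8 members with the smallest interaction p, the 5 with the largest palbociclib effect among those higher without overlap in both settings, the 3 with the highest mean, Stat2, Irf9, Irf7 and Isg15. Lgals3bp, Cxcl10 and other genes of the lists were named after their values were seen. The members and all gene lists were chosen with earlier results of these data known. Alternatives were other pseudocounts and filters, quantile normalization, no trend, 2-arm fits, a replicate block, exact permutation and leaving out tumors.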

Additional observations from a re-analysis of the deposited data

Results flagged for a closer look

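Oas2 is the member whose arms separated one way without anti-PD-1 and the other way with it. All 3 palbociclib tumors were above all 3 vehicle tumors, and all 3 combination tumors were below all 3 anti-PD-1 tumors. Of all genes tested, 36 had this pattern (0.235%). The combination tumors of Oas2 (3.99 to 8.91 FPKM) overlapped the vehicle tumors (4.83 to 7.81 FPKM). The difference between the responses was -2.29 on the log2 scale (limma, unadjusted p = 0.00014, adjusted p = 0.532). An exact permutation test of this difference over 400 relabelings gave p = 0.005. This is the smallest p that the design allows, and 7 other members also reached it. The relabelings exchanged combination with palbociclib tumors and anti-PD-1 with vehicle tumors. They assume no effect of anti-PD-1 with or without palbociclib, so the exact p is not a test of the interaction alone. Anti-PD-1 alone differed from vehicle by 0.79 for Oas2 (limma, unadjusted p = 0.018). The interaction misses the threshold after adjustment over all genes.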

How the results depend on the processing

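The direction of the members' medians was the same under every alternative run for the 7 comparisons, and of 1156 recomputed values of single members 1124 kept direction and side of the threshold, 11 lost p below 0.05, 21 gained it and 0 reversed. Counts after adjustment depended most on the settings. For palbociclib against vehicle, the 11 members became 0 with quantile normalization, 2 without the trend, 0 with a fit of the 2 arms only, and, in alternatives added after seeing the data, 26 without the tumors highest in skin and fat genes and 0 without those highest in muscle genes. For the palbociclib effect over both settings, the 6 became 11 with a filter at a mean FPKM of 1, 1 without a filter, 0 without the trend, 14 with the replicate block and 3 without the skin and fat tumors. At an unadjusted p, the 6 of the combination against anti-PD-1 became 3 with quantile normalization and 3 without the skin and fat tumors, the 5 of anti-PD-1 against vehicle became 10 with the 2 arms only and 13 without the skin and fat tumors, the 14 of the combination against vehicle became 23 without the latter, and the 34 of the combination against palbociclib became 18 without the muscle tumors. The causes were not tested. 

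Leaving out 1 tumor at a time gave the following ranges. Palbociclib against vehicle had 37 to 39 members at an unadjusted p, 0 to 29 after adjustment and a median of 1.06 to 1.41. The combination against anti-PD-1 had 2 to 7 and a median of 0.06 to 0.22. The palbociclib effect had 32 to 37, 0 to 19 and a median of 0.59 to 0.80. The interaction had 28 to 35 at an unadjusted p, 0 to 1 after adjustment (1 without palbociclib replicate 2) and a median of -1.20 to -0.88. Anti-PD-1 against vehicle had 0 to 11 and 0.18 to 0.36, the combination against vehicle 9 to 23 and 0.40 to 0.53, and the combination against palbociclib 26 to 35 and -0.96 to -0.61. Over all arms, 7 of 18 same-number pairs of tumors had a correlation of deviations over 0.1 (r from -0.21 to 0.45), so the numbers were not taken to pair the tumors. All 3 pairs of vehicle with anti-PD-1 were over 0.1 (0.453, 0.128 and 0.247), and there the replicate block gave 6 members at an unadjusted p. The block gave 15 members after adjustment in palbociclib against vehicle and 33 at an unadjusted p in the interaction. With 3 tumors per arm, an exact test of 3 against 3 cannot go below p = 0.1.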
